A study of Mus musculus with 8 samples.

Results

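The genes described here are 10 transcripts that mark or restrain signalling through the kinase ERK: the Sprouty genes Spry1, Spry2 and Spry4, their relatives Spred1 and Spred2, the phosphatase genes Dusp4 and Dusp6, the ETS factor genes Etv4 and Etv5, and Egr1. They were chosen by name, with earlier results of these data known. All 10 were found among the 22987 genes listed at 1 locus in each deposited table of 23699 entries. All 10 also passed the expression filter, which left 11556 genes for testing. RNA-seq of polyadenylated RNA compared mouse embryonic stem cells (mESC), a naive pluripotent state, with epiblast stem cells (mEpiSC), a primed state, with 4 libraries of each. Replicates 1 and 2 of mESC are of line ESF122, and 3 and 4 of line ESF175/1, all grown with the cytokine LIF and passaged as single cells with trypsin. For mEpiSC, replicate 1 is line EpiSC5, replicates 2 and 3 are EpiSC7, and replicate 4 is EpiSC9, all grown with the growth factor FGF2 and passaged in clumps with collagenase. Both states shared a serum replacement medium and a layer of irradiated embryonic fibroblasts, from which the cells were separated before extraction. State, medium and way of passage cannot be told apart in this design.

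Fibroblast growth factors bind receptor kinases at the cell surface and, through the adaptors Frs2, Grb2 and Gab1 and the exchange factors Sos1 and Sos2, switch on Ras, then the kinases Raf, Mek and Erk. Active ERK drives its own inhibitors: Sprouty and Spred proteins act near Ras and Raf, and dual-specificity phosphatases remove the activating phosphates from ERK itself. Etv4 and Etv5 are ETS transcription factors induced by FGF signalling, and Egr1 is an immediate-early zinc finger factor induced within minutes. In mESC, autocrine Fgf4 feeds this pathway and pushes cells towards leaving the naive state, whereas mEpiSC depend on added FGF2.

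The promoters of Dusp6 and Etv5 are shown because these genes, both usual readouts of FGF signalling, moved in opposite directions between the states. The sequences are the 250 bases before the start of transcription in RefSeq (GRCm38.p6, a later build than the mm9 of the expression tables), at chr10:99262981-99263230 on the plus strand and chr16:22439571-22439820 on the minus strand. Capitals mark GGAA, the core that ETS factors share, or TTCC, its complement on the other strand.
Dusp6: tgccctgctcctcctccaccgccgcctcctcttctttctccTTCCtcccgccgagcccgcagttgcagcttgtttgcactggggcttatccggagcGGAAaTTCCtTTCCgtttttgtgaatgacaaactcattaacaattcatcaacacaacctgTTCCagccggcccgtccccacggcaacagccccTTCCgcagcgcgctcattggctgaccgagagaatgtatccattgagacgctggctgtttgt
Etv5: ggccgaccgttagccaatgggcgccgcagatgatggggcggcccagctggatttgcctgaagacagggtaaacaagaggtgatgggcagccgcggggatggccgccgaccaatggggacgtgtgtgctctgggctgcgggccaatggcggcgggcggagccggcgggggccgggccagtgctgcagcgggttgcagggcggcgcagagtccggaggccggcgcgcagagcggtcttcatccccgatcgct
This core was chosen after the sequences were read. The Dusp6 window held 6 such cores and the Etv5 window 0. The core is common, being found in 93.4% of the 32851 promoter windows of this length, with a median of 3 per window. A second RefSeq start of Etv5 (chr16:22438369-22438618) had 4. The windows of Spry1, Spry2, Spred1 and Spred2 held 1, 3, 4 and 7. Any relation of these counts to the direction of a gene was not tested. Windows of 6 of the 10 genes matched the table (Spry1, Spry2, Spred1, Spred2, Dusp6 and Etv5). On both strands none of them held the longer ETS motif CCGGAAGT (in 2.88% of all windows), the AP-1 motif TGANTCA (6.75%), the cAMP response motif TGACGTCA (1.55%) or a CArG box (1.47%).

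Levels are given as FPKM, in which fragment counts are scaled to transcript length and library size, so that genes can be compared. Means carry the SD over the 4 libraries of a state. A difference is the mean of log2(FPKM + 1) in mEpiSC less that in mESC, which understates the change of low genes. Tests used limma over all 11556 genes, with Benjamini-Hochberg adjustment. The deposited intervals implied 24700000 to 38600000 fragments per library, and at least 246 for every one of the 10 genes in every library, with counting half-widths of at most 12.8% of the value. Whether libraries of the same line were grown separately is not in the labels, so p-values here reflect only the spread between these libraries, which may be technical. The cells matched their labels in that all 5 naive markers examined (Zfp42, Esrrb, Klf4, Tfcp2l1 and Dppa5a) were higher in every mESC library than in any mEpiSC library. The reverse held for 3 of 4 primed markers (Fgf5, Otx2 and Cdh2), while Pou3f1 overlapped. In bulk RNA, fewer cells of a type and less RNA per cell cannot be told apart.

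The genes did not move as a block. Dusp6, Dusp4 and Spry1 were higher in mEpiSC, Etv4, Etv5 and Spry4 were lower, and Spry2, Spred1, Spred2 and Egr1 did not pass the test. Thus 6 of the 10 were called, against 37.3% of all genes tested. Of these, 3 rose, against 23.1% of all genes, and 3 fell, against 14.2%. The libraries of the 2 states did not overlap for 6 of the 10, against 37.1% of all genes. With median ratio scaling 2291 genes rose and 2199 fell, and with quantile normalization 2188 and 2207, against 2665 and 1640 as deposited. The median difference of the 10 was 0.14, beside 0.083 over all genes, and the median size regardless of sign was 0.75, beside 0.39. Scaling moved the median of all genes from 0.083 as deposited to −0.014 with median ratios and −0.019 with quantile normalization. No called gene of the 10 changed direction under either. When the lines were treated as random blocks in limma, only Etv4 and Etv5 of the 10 passed. Spry1, Dusp4, Dusp6 and Spry4 had adjusted p of 0.066, 0.064, 0.071 and 0.092. In that fit 1796 of the 11556 genes were higher and 1046 lower. With 1 mean per line, where the spread is that within lines, all 6 passed, at 0.012, 0.01, 0.012 and 0.0042 for these 4. More genes passed there over the whole table as well, with 3396 higher and 2124 lower.

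**Figure D1:**
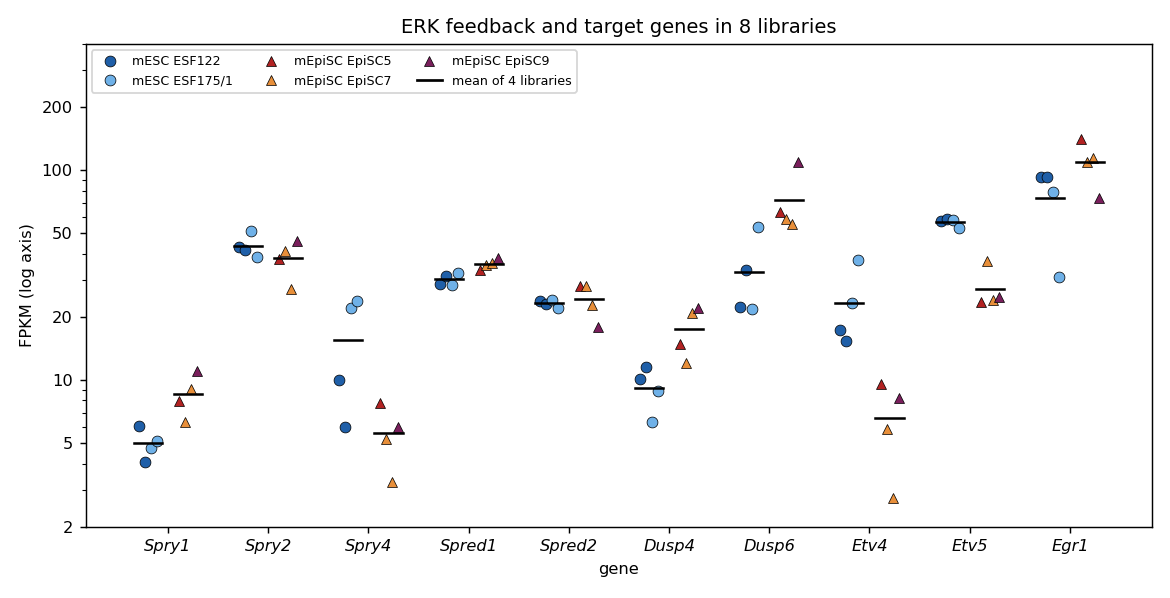
FPKM (log axis) of each gene in each of the 8 libraries, mESC as circles and mEpiSC as triangles, coloured by cell line, with bars at the mean of 4 libraries. Etv4 and Etv5 lie lower in all mEpiSC libraries than in all mESC libraries, Dusp4, Dusp6 and Spry1 lie higher, and the mESC values of Spry4 split by line.

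Of the ETS factors, Etv5 (chromosome 16, 22381386 to 22439643, mm9) was high and even in mESC, at 57.2, 58.4, 57.8 and 52.9 FPKM in replicates 1 to 4. In mEpiSC it stood at 23.5, 36.8, 24.1 and 24.9 FPKM. All mEpiSC values lay below all mESC values, and the mean fell from 56.5 ± 2.50 to 27.3 ± 6.35 FPKM (log2 −1.05, SE 0.15; limma, adjusted p = 0.0011). Of the 50-base windows of Etv5 transcripts, 25.4% also occur in a pseudogene, Gm4798, so part of its level is uncertain.

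Etv4 (chromosome 11, 101631056 to 101646624) fell further, from 17.4, 15.4, 23.4 and 37.4 FPKM in mESC to 9.58, 5.87, 2.74 and 8.26 FPKM in mEpiSC. The means were 23.4 ± 9.95 and 6.61 ± 3.00 FPKM, a 3.54-fold difference (log2 −1.70, SE 0.36; adjusted p = 0.0066). The states did not overlap, but the spread within each was wide: mESC 4 and mEpiSC 3 were the extremes. Etv5 was the more abundant of the pair in every library, with Etv4 making up 20.9% to 41.5% of their summed FPKM in mESC and 10.2% to 29.0% in mEpiSC. Their sum was 73.8 to 90.3 FPKM in mESC and 26.9 to 42.7 FPKM in mEpiSC. Both calls held in all 22 other settings tried, with adjusted p of at most 0.0072 for Etv5 and 0.04 for Etv4.

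The phosphatases went the other way. Dusp6 (chromosome 10, 98725865 to 98730123), a cytoplasmic phosphatase that acts on ERK, measured 22.4, 33.5, 21.9 and 53.7 FPKM in mESC and 63.6, 58.8, 55.7 and 109 FPKM in mEpiSC. The lowest mEpiSC library was only slightly above mESC 4, and the replicate 4 library was the highest of its state in both. The means were 32.9 ± 14.9 and 71.8 ± 25.2 FPKM, a 2.19-fold rise (log2 1.15, SE 0.31; adjusted p = 0.019). The call was lost without mESC 1 (log2 1.00, adjusted p = 0.055) or mESC 3 (log2 0.99, adjusted p = 0.059). Among replicates 1 to 3 alone the difference was 1.19 (adjusted p = 0.0025).

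Dusp4 (chromosome 8, 35870664 to 35882948), a nuclear phosphatase for ERK and related kinases, measured 10.1, 11.5, 6.32 and 8.91 FPKM in mESC and 14.8, 12.1, 20.8 and 22.1 FPKM in mEpiSC. The groups did not overlap, and the means were 9.20 ± 2.19 and 17.4 ± 4.77 FPKM (log2 0.84, SE 0.23; adjusted p = 0.018). The call was lost without mESC 3 (adjusted p = 0.051), without mEpiSC 3 (0.055) and with replicates 1 to 3 only (0.057). Dusp6 was 2.21 to 6.03 times as abundant as Dusp4 in mESC and 2.68 to 4.95 times in mEpiSC. Their sum was 28.2 to 62.6 FPKM in mESC and 70.9 to 131 FPKM in mEpiSC.

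Within a library, the ratio of Dusp6 to Etv4 does not depend on how libraries were scaled to each other. It was 1.29, 2.17, 0.936 and 1.43 in mESC 1 to 4 and 6.64, 10.0, 20.3 and 13.2 in mEpiSC 1 to 4. Dusp6 was thus at 0.936 to 2.17 times the level of Etv4 in mESC, and several times the more abundant in each mEpiSC library. Dusp6 had the largest rise of the 10 genes and Etv4 the largest fall, so the choice of this pair favours a difference between the states.

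**Figure D2:**
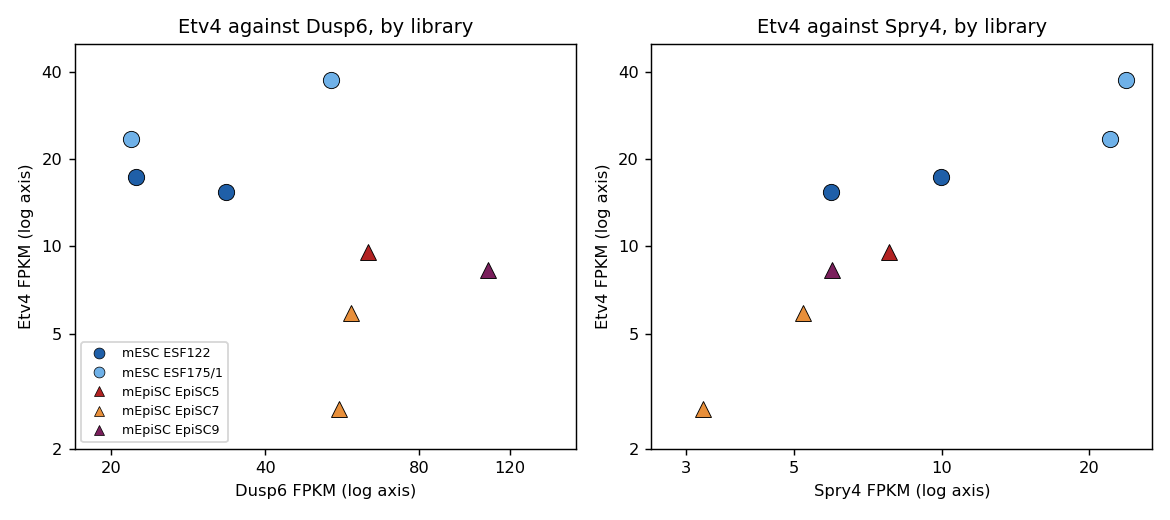
Etv4 against Dusp6 (left) and against Spry4 (right), in FPKM on log axes, 1 point per library, mESC as circles and mEpiSC as triangles, coloured by line. Dusp6 exceeds Etv4 6.64 to 20.3 times in mEpiSC, and on the right both ESF175/1 libraries stand at the top of both axes.

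The Sprouty genes split 3 ways. Spry1 (chromosome 3, 37538872 to 37543521), the least abundant of the 10 genes in mESC, measured 6.02, 4.06, 4.75 and 5.15 FPKM there and 7.96, 6.29, 9.05 and 11.1 FPKM in mEpiSC. Every mEpiSC value was above every mESC value, though only just, and the means were 5.00 ± 0.815 and 8.60 ± 2.02 FPKM (log2 0.67, SE 0.18; adjusted p = 0.018). The call was lost without mESC 3 or without mEpiSC 3 (adjusted p = 0.052 each). In a later annotation 21.8% of the windows of Spry1 also occur in a predicted gene, Gm42922, on the same strand or the other. Which of these holds was not recorded, and strand use in the libraries is not stated, so part of the level of Spry1 is uncertain.

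Spry2 (chromosome 14, 106291164 to 106296036), the most abundant Sprouty gene in all 8 libraries, measured 43.0, 41.8, 51.3 and 38.7 FPKM in mESC and 37.8, 41.2, 27.2 and 45.9 FPKM in mEpiSC. The ranges overlapped widely (log2 −0.21, 95% interval −0.60 to 0.17; adjusted p = 0.36). Without mEpiSC 3 the difference was −0.065.

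Spry4 (chromosome 18, 38745919 to 38760922) measured 9.98, 5.95, 22.1 and 23.8 FPKM in mESC and 7.81, 5.22, 3.26 and 5.98 FPKM in mEpiSC. The ESF122 libraries stood near the mEpiSC range, and mESC 2 inside it, while both ESF175/1 libraries stood well above. The mean fell from 15.5 ± 8.84 to 5.57 ± 1.88 FPKM (log2 −1.19, SE 0.41; adjusted p = 0.049). This call was the least firm of the 6: omitting any single library other than mESC 2 ended it (adjusted p 0.051 to 0.13), and it was also lost with the replicate number as a block (0.057) and with replicates 1 to 3 only (0.12). Spry4 took 11.5% to 35.2% of the summed FPKM of the 3 Sprouty genes in mESC and 8.26% to 14.6% in mEpiSC, and Spry1 took 6.08% to 10.2% and 11.9% to 22.9%. The sum itself overlapped, at 51.8 to 78.1 FPKM in mESC and 39.5 to 63.0 in mEpiSC.

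The Spred genes, which encode Sprouty-related inhibitors that bind Ras regulators at the membrane, differed little between the states. Spred1 (chromosome 2, 116947186 to 117005072) measured 28.8, 31.4, 28.3 and 32.5 FPKM in mESC and 33.5, 35.2, 36.2 and 38.4 FPKM in mEpiSC. The states did not overlap, but the shift was small and missed the threshold (30.3 ± 2.04 against 35.8 ± 2.05 FPKM; log2 0.24, 95% interval 0.0068 to 0.47; adjusted p = 0.097). With the replicate 4 libraries as a batch term in limma it passed, at an adjusted p of 0.029. No label names these libraries as a batch, and mEpiSC 4 is also the only EpiSC9 library. Spred2 (chromosome 11, 19824445 to 19922600) measured 23.8, 23.0, 24.1 and 22.0 FPKM in mESC and 28.0, 28.1, 22.9 and 17.9 FPKM in mEpiSC. The mEpiSC values lay on both sides of the narrow mESC range (log2 0.04, 95% interval −0.30 to 0.38; adjusted p = 0.87), and the sign of this difference turned with median ratio scaling (−0.07).

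Egr1 (chromosome 18, 35020861 to 35024610) had the highest mean of the 10 genes in both states, at 92.9, 93.0, 78.4 and 31.0 FPKM in mESC and 141, 109, 114 and 73.9 FPKM in mEpiSC. The replicate 4 library was the lowest of its state in both, and mEpiSC 4 lay inside the mESC range. The difference did not pass over all libraries (73.8 ± 29.4 against 109 ± 27.7 FPKM; log2 0.65, 95% interval −0.15 to 1.45; adjusted p = 0.18). It passed with the replicate number as a block (limma, adjusted p = 0.023). It also passed among replicates 1 to 3 alone, where the states did not overlap (log2 0.45, adjusted p = 0.029). The block rests on the values alone, since no label pairs the libraries. Replicates 1 to 3 omit the lowest library of each state. Without mESC 4 alone the difference was 0.28 (adjusted p = 0.34). Across all genes the deviations of the replicate 4 libraries from their state means correlated at 0.51, and what these libraries share was not tested. With the level of fibroblast markers as a covariate, described at the end, the Egr1 difference was 0.03 (adjusted p = 0.96).

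**Figure D3:**
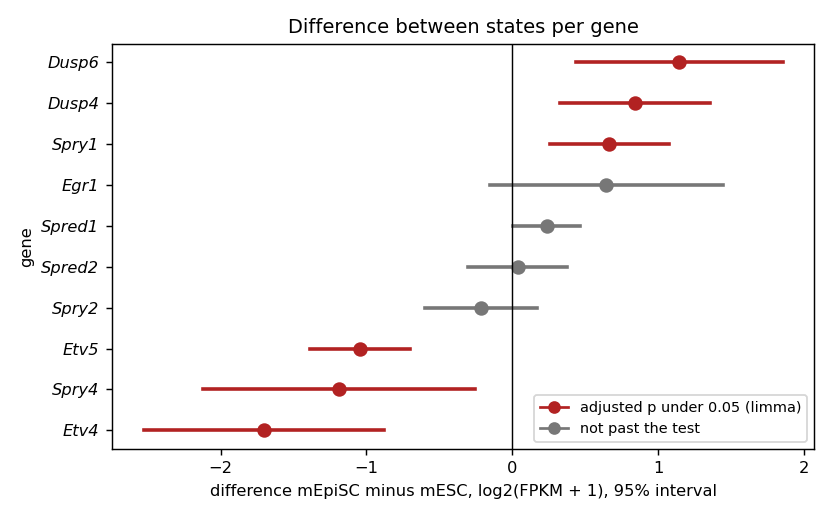
Difference mEpiSC minus mESC in log2(FPKM + 1) for each gene, with its 95% interval from limma, red where the adjusted p is under 0.05. Dusp6 (1.15) and Etv4 (−1.70) mark the ends, and the intervals of Spry2, Spred2 and Egr1 cross 0.

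In order of level, mESC ran Egr1, Etv5, Spry2, Dusp6, Spred1, Etv4, Spred2, Spry4, Dusp4 and Spry1. Neighbours in this order overlapped in range except Etv5 above Spry2 and Dusp4 above Spry1. In mEpiSC the order was Egr1, Dusp6, Spry2, Spred1, Etv5, Spred2, Dusp4, Spry1, Etv4 and Spry4, with Dusp6 clear of Spry2 and Dusp4 clear of Spry1 and the other neighbours overlapping. Dusp6 thus stood at rank 4 in mESC and rank 2 in mEpiSC, and Etv4 at ranks 6 and 9.

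The genes were next compared between lines of 1 state. None of the 10 passed limma's contrast of ESF175/1 with ESF122, where 0.762% of all genes did, and 3 had an unadjusted p under 0.05. The share of all genes under that unadjusted level was not computed, here or for the mEpiSC lines, so such counts are only descriptions. Spry4 came nearest, with means of 22.96 FPKM in ESF175/1 and 7.97 in ESF122 (log2 1.45, SE 0.27; limma, adjusted p = 0.085). The others were Etv4, with line means of 30.4 and 16.4 FPKM, and Egr1, with 54.7 and 93.0 FPKM. Without mESC 3, which leaves mESC 4 alone for ESF175/1, Egr1 passed (log2 −1.56, adjusted p = 0.0037), whereas without mESC 4 the difference was −0.24 (adjusted p = 0.60). In both fits the lone library is assumed to vary like the other lines. Over the 3 mEpiSC lines, 2 of which have 1 library, none of the 10 passed the F test, against 2.6% of all genes, and none had an unadjusted p under 0.05. Egr1, with means of 141 FPKM in EpiSC5, 111 in EpiSC7 and 73.9 in EpiSC9, had an adjusted p of 0.48. It passed (0.025) where mESC 3 or mESC 4 was taken out of the spread shared by all lines, which is also the spread assumed for the lone EpiSC5 and EpiSC9 libraries.

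Across the 8 libraries, Etv4 and Spry4 followed each other closely (Pearson r = 0.91 of log2 values, and 0.84 after the mean of each state was removed), and so did Dusp6 and Spred1 (0.95 and 0.87). Dusp6 and Egr1 ran against each other within the states (−0.82). Whatever the sign, these pairs had the largest within-state values of all pairs of the genes described here. Their choice thus favours close likeness. In each state the replicate 4 library was the highest for Dusp6 and Spred1 and the lowest for Egr1. For Etv4 and Spry4, both ESF175/1 libraries stood above both ESF122 libraries, and the mEpiSC libraries ranked alike. How far these libraries and lines set the values was not tested. The values are descriptions over 8 libraries that differ in state, line and depth. Among 7623 other genes with a mean of at least 5 FPKM, the closest to Etv4 were Taf13 (0.98) and Mto1 (0.98), to Spry4 Jak3 (0.97) and Gcdh (0.97), and to Etv5 Dus1l (0.98) and Zfp932 (0.98). The closest to Spred1 were Dgcr6 and Mdk (0.996 and 0.995), to Egr1 Cdk5rap2 (0.995) and Zbtb7b (0.98), and to Spry1 Ext1 (0.96) and Maff (0.96). They were picked as the highest of all these genes over only 8 libraries, so high values are favoured by the choice.

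Of the ligands and receptors, 4 picked by name were compared, Fgf5 being also one of the primed markers above. Fgf4 was at 29.5 to 66.1 FPKM in mESC and 1.23 to 3.70 in mEpiSC (limma, adjusted p = 7.3e-05; log2 −3.74, SE 0.31). Fgf5 (log2 3.89, SE 0.73) and Fgf8 (log2 2.81, SE 0.71, limma, adjusted p = 0.014) were higher in mEpiSC. So was the receptor Fgfr1 (log2 0.72, SE 0.21, adjusted p = 0.023), at 18.7 to 29.9 against 28.8 to 52.0 FPKM. Fgf8 overlapped between the states, at 1.58 to 21.6 FPKM in mESC and 12.8 to 60 FPKM in mEpiSC. Fgf5 was at 0.263 to 8.61 FPKM in mESC and 13.5 to 98.2 FPKM in mEpiSC. The highest mESC value of both ligands was that of mESC 2. The call of Fgfr1 was lost without mESC 1, mESC 3, mEpiSC 2 or mEpiSC 3 (adjusted p 0.058 to 0.07), and that of Fgf8 with replicates 1 to 3 only (0.054). Both were also lost with random line blocks (0.10 and 0.064), and Fgf8 with the fibroblast covariate (0.052).

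Of 25 tested genes between receptor and ERK, 5 rose, 3 fell and 17 did not pass, with a median difference of 0.11. The number called was near the background of 37.3% of all genes. Gab1, a docking adaptor that links receptors to the phosphatase Shp2, changed most. It stood at 72.0, 58.5, 65.4 and 94.8 FPKM in mESC and at 7.09, 5.52, 7.71 and 5.96 FPKM in mEpiSC (log2 −3.27, SE 0.17; adjusted p = 4.5e-06). The ERK-activated kinases of the RSK family went both ways, with Rps6ka1 lower (30.0 ± 3.89 to 18.2 ± 2.60 FPKM; log2 −0.69, SE 0.14) and Rps6ka3 higher (10.3 ± 1.27 to 17.7 ± 1.51 FPKM; log2 0.73, SE 0.12). With replicates 1 to 3 only, 3 cascade genes were higher and 4 lower.

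Of 16 tested genes for other inhibitors of receptor kinases and of this pathway, 4 rose, none fell and 12 did not pass, with a median of 0.15. The number that rose was near the background of 23.1%. Lrig1, which promotes turnover of receptor kinases, went from 2.59 ± 0.452 to 12.9 ± 1.61 FPKM (limma, adjusted p = 3.8e-05; log2 1.95, SE 0.14). Its relative Lrig3 went from 4.59 ± 1.08 to 24.3 ± 14.2 FPKM (log2 2.06, SE 0.32). Errfi1, an ERK-induced inhibitor of the EGF receptor, rose from 7.58 ± 1.51 to 15.4 ± 5.17 FPKM (log2 0.90, SE 0.22), a call lost with the fibroblast covariate (0.64, adjusted p = 0.078). Pebp1, a Raf-binding inhibitor, measured 93.6 ± 27.7 and 89.5 ± 48.95 FPKM (log2 −0.15, adjusted p = 0.75). Spry3 was listed at 0 in all 8 libraries. The higher members were 7 without mEpiSC 4 and with replicate 4 as a batch term, and 2 with the fibroblast marker covariate described below.

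Among 12 genes, made up of other ETS factors and Srf, the partner of the Elk factors at serum response elements, 4 rose, 1 fell and 7 did not pass, with a median of 0.30, again near the 37.3% called over all genes. Srf rose from 12.7 ± 4.31 to 25.0 ± 4.53 FPKM (log2 0.95, SE 0.22) and Elf2 from 14.6 ± 1.69 to 23.9 ± 2.44 FPKM (log2 0.67, SE 0.12). Gabpa, a widely expressed ETS factor, fell from 32.6 ± 1.71 to 23.9 ± 1.20 FPKM (log2 −0.43, SE 0.10). Erf, an ETS repressor that ERK expels from the nucleus, measured 27.7 ± 13.6 and 17.7 ± 2.73 FPKM (adjusted p = 0.16).

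Immediate-early genes, the class to which Egr1 belongs, were mostly higher in mEpiSC. Of 21 tested, 16 rose, 2 fell and 3 did not pass, with a median of 1.42. Over all genes the median was 0.083, and 23.1% rose and 14.2% fell. The list was chosen with earlier results of these data known, so its counts are a description and not independent support. The 16 were Egr2, Egr3, Fos, Fosb, Fosl2, Jun, Junb, Ier5, Nr4a1, Atf3, Zfp36, Btg2, Cyr61, Phlda1, Klf6 and Maff, with differences of 1.15 to 3.02, and for all 16 every mEpiSC library was above every mESC library. Over all genes the states did not overlap, in either direction, for 37.1%. Fos, a subunit of AP-1, stood at 19.3, 20.7, 13.4 and 5.95 FPKM in mESC and at 76.4, 83.7, 109 and 120 FPKM in mEpiSC (log2 2.74, SE 0.34; adjusted p = 5.9e-04). Ier5 rose from 1.20 ± 0.341 to 7.42 ± 2.35 FPKM (log2 1.91, SE 0.22). Klf2, a factor of the naive network, fell from 34.7 ± 5.02 to 4.38 ± 2.58 FPKM (log2 −2.85, SE 0.31), as did Mcl1, while Ier2 measured 98.2 ± 24.0 and 90.1 ± 12.7 FPKM (adjusted p = 0.68). The number higher was 15 to 16 on leaving out any 1 library and 16 with replicates 1 to 3 only. It was 11 where a mean of at least 5 FPKM was required. There Egr3, Fosl2, Ier5, Atf3 and Phlda1 fell below the filter and were not tested.

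**Figure D4:**
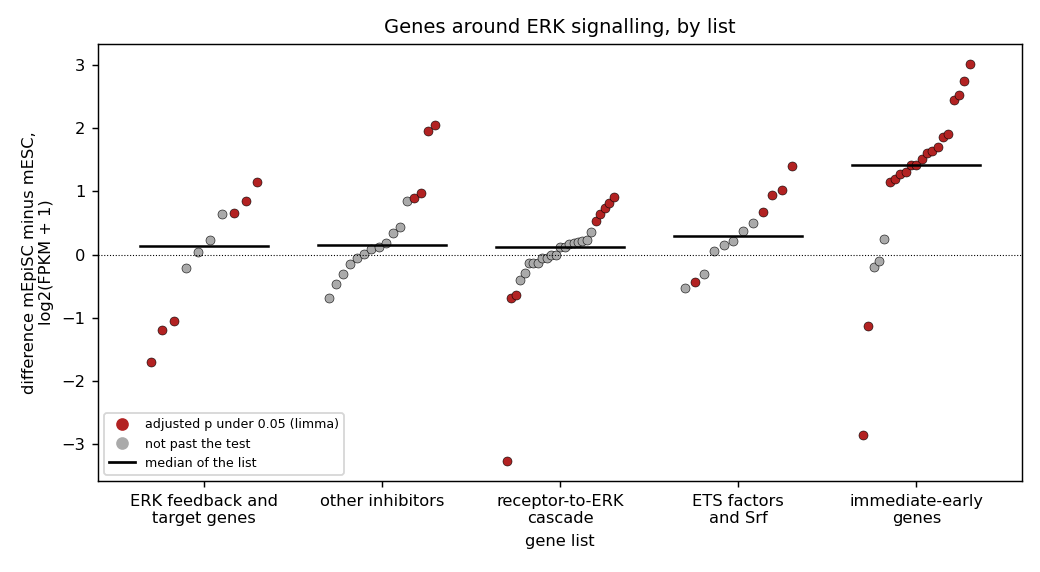
Difference mEpiSC minus mESC in log2(FPKM + 1) for every tested gene of 5 lists, 1 point per gene in order of size, red where the adjusted p is under 0.05, with a bar at the list's median. Red points make up 18 of the 21 immediate-early genes. The immediate-early list has a median of 1.42, the other 4 lists shown medians of 0.11 to 0.30. The list of fibroblast markers, with a median of 1.43, is not shown.

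Markers of fibroblasts, the cell type of the feeder layer that both states share, were measured as well. Whether these transcripts came from the feeders or from other cells was not tested. The mean log2 level of 14 tested markers was 0.52 to 3.69 in mESC and 2.36 to 4.58 in mEpiSC, and the summed FPKM of all 16 was 7.03 to 302.5 and 70.5 to 564.7. These ranges overlapped. Of the 14, 4 were higher and none lower in mEpiSC, beside 23.1% and 14.2% of all genes. For 1 of them the states did not overlap, beside 37.1% of all genes. The median difference of the 14 markers was 1.43, beside 0.083 over all genes and 1.42 for the immediate-early list. What part the fibroblast markers have in the results was not tested beyond the fit below. A single marker, Fap, was at 0, in mESC 4 alone, and the number of the 16 below 1 FPKM was 2, 6, 5 and 13 in mESC 1 to 4 and 1 or 2 in each mEpiSC library. With the mean marker level as a covariate, 15 immediate-early genes were higher, Dusp6 differed by 1.67 (adjusted p = 0.0049), Etv5 by −1.09 (0.0058) and Etv4 by −1.53 (0.04). In that fit Spry1 was at 0.70 (adjusted p = 0.052) and Spry4 at −1.01 (0.18).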

How the data were processed

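The authors deposited 1 table per library with FPKM per gene, the bounds of an interval on the FPKM scale (signal as deposited) and a quantification status. TopHat2 2.0.6, Cufflinks 2.0.2 and mm9 are named per the submitters' processing notes. Annotation, options and strand use are not stated there or in the labels. Libraries were grouped by their labels. Symbols at several loci (248) were left out. The filter kept genes reaching 1 FPKM in 4 or more libraries. Values of log2(FPKM + 1), computed from the deposited FPKM, were fitted in R 4.3.3 with limma 3.58.1 (a variance trend and robust estimation, with statmod 1.5.0), and genes were called at an adjusted p under 0.05. Lines were compared in a fit with 1 mean per line and 3 residual degrees of freedom. Depth was estimated from the deposited intervals, read as 2 Poisson SD; low genes came out as whole fragments for 78.4% to 80.6% (tolerance 0.05). Starts are counted from 1.

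The members and lists were chosen with earlier results of these data known. Named genes were all 10 members, 4 inputs, and from each other list the 3 of lowest p past the test and the most abundant gene that missed it (for the cascade list it is not reported here); other names were added after their values were seen, and likeness is shown for 6 of the 10. The GGAA core was also chosen after the sequences were read. Deviations of same-numbered libraries from their state means correlated at 0.22, 0.15, 0.18 and 0.51 in order of number. Each exceeds 0.1, and on that ground, which rests on the values alone, a shared number was treated as a pair, although for replicates 2 and 3 a library of another number correlated more (0.19 and 0.21). The fit was tested on simulated data.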

Additional observations from a re-analysis of the deposited data

Results flagged for a closer look

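Among 20 sets of 4 libraries (10 genes in 2 states), a single library stood apart from the other 3 by Dixon's test in 2, where chance gives about 1 in 20. Dusp6 reached 109 FPKM in mEpiSC 4, the EpiSC9 library, against 55.7 to 63.6 FPKM in the others. Etv5 was at 36.8 FPKM in mEpiSC 2 against 23.5 to 24.9 FPKM, while mEpiSC 3, of the same line EpiSC7, was at 24.1 FPKM.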

How the results depend on the processing

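Every state result was recomputed with other pseudocounts, filters, scalings, status and trend settings, blocks, batch term, covariate and without each library. Etv4, Etv5 and Spry2 kept direction and side of the threshold in all of them. So did Fgf4, Fgf5, Gab1, Rps6ka1, Rps6ka3, Lrig1, Lrig3, Elf2, Gabpa, Srf, Erf, Fos and Klf2, and Ier5 wherever it was tested. The counts over all genes were 2665 higher and 1640 lower. With a mean of at least 5 FPKM 1597 were higher, where genes below that mean were not tested. Where lines entered as random blocks, 1046 were lower. Of the 10 genes, 0 were higher with the random block, 5 with replicate 4 as a batch term and 0 to 3 without 1 library. Over all genes the numbers higher in these fits were 1796, 3414 and 1904 to 2820. With the random block Spry1 was at 0.69, Dusp4 at 0.86, Dusp6 at 1.20 and Spry4 at −1.13, none past the test. Spry4 also missed the test at −0.86 with a pseudocount of 5. At −1.19 Spry4 missed it without a filter, with a mean of at least 5 FPKM, without the trend and with the replicate block. The same held at −0.97 in replicates 1 to 3 and at −1.01 with the fibroblast covariate. Spry1 missed it at 0.49 with quantile normalization and at 0.70 with the covariate, and Dusp4 at 0.72 in replicates 1 to 3. Egr1 passed at 0.65 with the replicate block and the batch term and at 0.45 in replicates 1 to 3, and Spred1 at 0.24 with quantile normalization and the batch term. The replicate block changed no other call of the 10. Spred2 turned to −0.069 with median ratios and −0.15 with the covariate; there Pebp1 turned to 0.30 and Ier2 to 0.18. Without 1 library, the ranges were 0.55 to 0.79 for Spry1, −1.54 to −0.93 for Spry4, −0.31 to −0.065 for Spry2, −0.039 to 0.17 for Spred2, 0.28 to 0.82 for Egr1, 0.69 to 0.99 for Dusp4, 0.93 to 1.41 for Dusp6, −0.48 to 0.030 for Pebp1 and −0.21 to 0.050 for Ier2. Between lines, 0 to 1 of the 10 passed in mESC and 0 to 1 in mEpiSC. Depth bears on the 10 genes through counting half-widths of at most 12.8%, and was not compared with the spread for other genes. Causes of these changes were not tested.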
